A study of Mus musculus with 12 samples.

Results

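The departure of the double knockout from the sum of both single-knockout effects was measured for each gene, in all 12 libraries of the series. The libraries came from macrophages differentiated out of mouse bone marrow. Wild type (WT) marrow gave 3 libraries, and so did each of Cbl-/-, Cbl-b-/- and a double knockout lacking both genes (DKO). All cultures were grown from marrow to day 9 in medium with L-cell supernatant as the source of CSF-1, so no group was without this growth factor, and adherent cells were taken. No promoter, Cre or clone is named in the labels for these alleles, and the labels speak of pooling in equal concentrations without saying what was pooled. Nothing in them ties a replicate to a separate animal, so the p-values reflect only how far these libraries spread, and that spread may be technical. Of 15555 genes in the deposited table, 12671 passed a filter on low counts and were tested. A gene is listed only if it had at least 1 read in the first WT library, so a gene silent there has no value here. Total counts were 21048103 to 43946503 per library. DKO 3 stood apart from its group: its counts differed from those of DKO 1 and 2 by a chi-square of 44.7 and 55.3 per degree of freedom, against 3.93 to 12.3 for the other pairs within a genotype.

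Cbl and Cbl-b are ubiquitin ligases of one family that bind activated tyrosine kinases and their partners and mark them for internalization and degradation. In macrophages the best known target is the receptor for CSF-1, the growth factor on which these cells depend, and both ligases also act on signalling from immune receptors. Because 1 ligase can stand in for the other, the loss of both can differ from what either loss predicts. If both losses acted independently on the log2 scale, the DKO level of a gene would equal the WT level multiplied by both single-knockout fold changes, called the sum below. The departure is the log2 ratio of the observed DKO level to that sum. It is also the difference between the effect of losing Cbl where Cbl-b is absent (DKO against Cbl-b-/-) and where it is present (Cbl-/- against WT), comparisons that share no library.

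Cbl transcripts were lower in both genotypes that lack the gene. Cbl (ENSMUSG00000034342, chromosome 9, 44142976 to 44234049, GRCm38) had 141, 143 and 136 CPM in WT, 53.96, 51.2 and 49.3 for Cbl-/-, 143, 137 and 138 for Cbl-b-/- and 40.97, 36.8 and 35.01 for DKO, where CPM is the read count relative to the scaled size of the library. The 6 libraries labelled Cbl-/- and DKO lay below all others, and the remaining Cbl reads in DKO were fewer than the sum of 51.2 CPM, with a departure of -0.44 (SE 0.09, adjusted p = 0.00216). Cblb (ENSMUSG00000022637, chromosome 16, 52031225 to 52208048) had 62.2, 55.5 and 60.6 CPM in WT, 67.9, 68.2 and 69.2 for Cbl-/-, 54.5, 54.4 and 49.4 for Cbl-b-/- and 73.4, 67.98 and 73.7 for DKO. No group was depleted of Cblb transcripts, and its departure was 0.24 (SE 0.09, adjusted p = 0.0824). A count summed over all exons would miss an allele that still makes the transcript. These counts therefore do not show the Cbl-b loss that the labels Cbl-b-/- and DKO state, and they cannot settle it. Every direction below that uses libraries so labelled rests on the label.

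Loss of both ligases in the libraries labelled DKO gave a transcriptome that the single losses did not sum to for many genes. There, 1985 of 12671 genes (15.7%) departed from the sum at an adjusted p under 0.05 in edgeR's quasi-likelihood test, 1063 above it (8.39% of the genes tested) and 922 below (7.28%). The departure was at least 1 log2 unit, a 2-fold change, for 466 of them, 298 above and 168 below. The median over all genes tested was 0.0037. For each of the 1985 called genes all 3 DKO libraries lay on the called side of the sum, and 0 changed sign when effects were added as CPM rather than as logarithms. These genes were chosen by that same departure, so neither count is separate support for it. Without DKO 3 the count was 2780, and without WT 3, the lowest, 1448. The smallest departure called was 0.20, and the median standard error was 0.13 log2 units. In 822 of the 1985 the 3 DKO libraries lay above all 9 others (13.9% of all genes tested did so) and in 646 below them (11.5%). The 3 Cbl-/- libraries lay above all others in 245 (3.88%) and below in 199 (3.16%). Scaling by total counts, which moved the median departure of all genes from 0.0037 to -0.11, gave 711 genes above and 1719 below. The split between both directions therefore depends on the scaling, and small departures are read relative to that shift.

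Differences that followed the loss of Cbl were larger when Cbl-b was absent too. Among the 10465 genes averaging at least 1 log2 CPM, 113 differed by at least 1 log2 unit between Cbl-/- and WT, and 344 between DKO and Cbl-b-/-. The median size of the difference was 0.096 log2 units in the first comparison and 0.17 in the second. For Cbl-b the contrast was wider, with 16 genes at 1 log2 unit or more between Cbl-b-/- and WT and 291 between DKO and Cbl-/-. The numbers of genes called were 1251 (9.87%) for Cbl loss with Cbl-b present, 4211 (33.2%) with it absent, 62 (0.489%) for Cbl-b loss with Cbl present and 3747 (29.6%) with it absent. These counts depend on the spread assumed. A limma voom fit with 1 variance factor per genotype called 2936 and 2885 genes for Cbl loss, so the order of the first pair of counts was not kept, while it called 115 and 3014 for Cbl-b loss. Replicates varied least in Cbl-/- and most in DKO, with biological coefficients of variation of 4.25% and 11.9%, and of 5.41% in WT and 7.88% in Cbl-b-/-. The part of this wider spread in the larger differences was not tested. The count of 1251 became 733 without WT 1, 801 without WT 2, 799, 803 and 784 without Cbl-/- 1, 2 and 3, and 2206 without DKO 3. The count of 62 became 37 without WT 1, 35 without Cbl-b-/- 2, 41 without Cbl-b-/- 3 and 144 without DKO 3. The plot of the effect of Cbl loss in both backgrounds shows each gene's distance from equal effects.

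**Figure D1:**
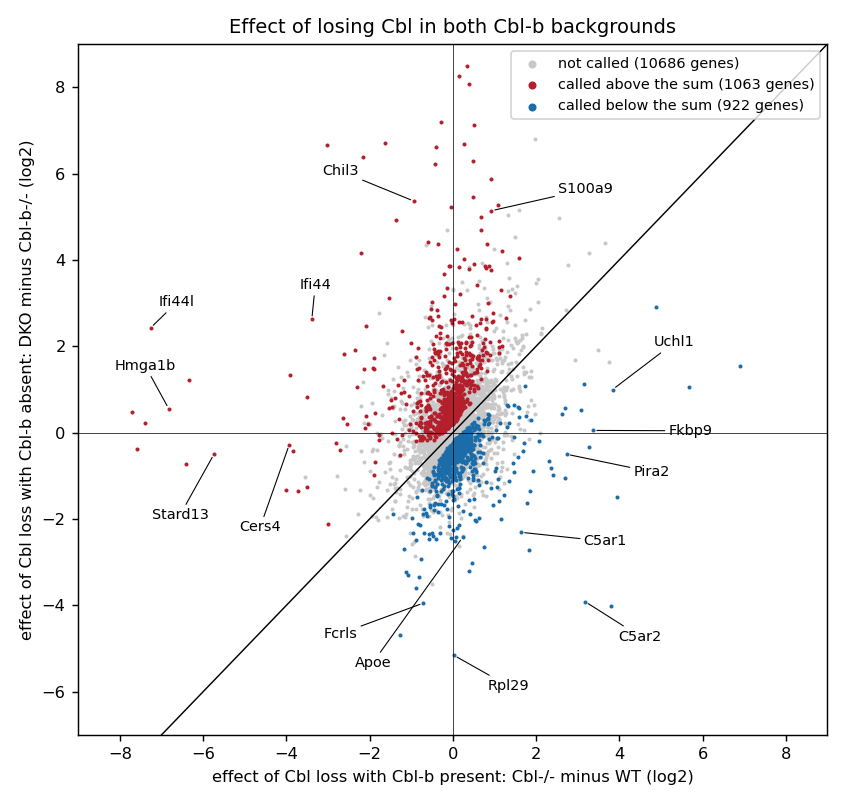
Each point is 1 of 12671 genes, with the log2 effect of Cbl loss where Cbl-b is present (Cbl-/- minus WT) on the horizontal axis and where it is absent (DKO minus Cbl-b-/-) on the vertical axis. The diagonal marks equal effects; 1063 genes called above the sum are red, 922 called below are blue, and C5ar1 and C5ar2 lie in the quadrant of opposite effects at the lower right.

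For most of the called genes an effect of Cbl loss was called only where Cbl-b was missing as well. Of the 1985, 1347 (67.9%) were in this class, 762 upward and 585 downward. It held 3457 of all 12671 genes tested. The median effect in the 762 was -0.02 with Cbl-b present and 0.54 with it absent. With 1 variance factor per genotype, 969 of 1894 called genes were in the class. An effect that misses the threshold is not shown to be absent. A second class of 244 genes (12.3%, and 497 of all genes tested) had a called effect only with Cbl-b present, 131 upward and 113 downward. In those 131 the median effect was 0.35 in Cbl-/- against WT and -0.08 in DKO against Cbl-b-/-. Effects called in both backgrounds had the same direction in 179 genes (9.02%) and opposite directions in 124 (6.25%). Of the latter, 64 rose and then fell and 60 fell and then rose. Another 91 had neither called. Over all genes tested these 3 classes held 630, 124 and 7963. These classes are a description of genes chosen by the departure itself and carry no test of their own. Leaving out 1 library moved the last counts by over 1.5 times: the 124 became 72 to 82 without WT 1, WT 3 or any 1 Cbl-/- library and 258 without DKO 3. The 244 likewise became 147 to 162 without WT 1, WT 3 or any 1 Cbl-/- library, and 419 without DKO 3. The 179 became 95 without WT 1, 103 without WT 2, 108 to 116 without any 1 Cbl-/- library and 319 without DKO 3, and the 91 became 57 without Cbl-b-/- 3 and 143 without DKO 3. By the effect of Cbl-b loss, 1842 of the 1985 (92.8%) were called only with Cbl absent and 18 only with Cbl present. Over all genes tested these numbers were 3705 and 20.

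The receptors for the complement fragment C5a, an inflammatory attractant of myeloid cells, were raised by either loss and lowered by both. C5ar1 (ENSMUSG00000049130, chromosome 7, 16246743 to 16259540) encodes the classical signalling receptor and C5ar2 (ENSMUSG00000074361, chromosome 7, 16234585 to 16244154) a second receptor, and the genes are 2.59 kb apart. C5ar1 had 252, 297 and 207 CPM in WT, 708, 751 and 899 for Cbl-/-, 496, 525 and 529 for Cbl-b-/- and 101, 114 and 97.2 for DKO. Both single knockouts lay above every WT library, and DKO below every WT library. The sum for DKO was 1609 CPM, and the departure was -3.95 (SE 0.16, adjusted p = 7.06e-10). C5ar2 had 2.69, 2.59 and 2.93 CPM in WT, 23.5, 24.2 and 26.3 for Cbl-/-, 15.3, 15.5 and 18.1 for Cbl-b-/- and 1.003, 0.859 and 1.31 for DKO. Its groups were ordered in the same way with no overlap, against a sum of 147 CPM, and the departure was -7.09 (SE 0.19, adjusted p = 3.06e-13). The effect of Cbl loss on C5ar2 was 3.18 (SE 0.12, adjusted p = 1.78e-11) with Cbl-b present and -3.92 (SE 0.14, adjusted p = 7.38e-12) with it absent. C5ar2 had the largest departure below the sum among genes averaging at least 1 log2 CPM. In DKO against WT, C5ar1 fell by 1.28 and C5ar2 fell by 1.34 on the log2 scale.

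Other genes that rose with either loss also lay below the sum. Pira2, an activating receptor of the paired immunoglobulin-like family, had 17.9 to 29.3 CPM in WT, 154 to 167 for Cbl-/-, 75.7 to 80.5 for Cbl-b-/- and 48.05 to 63.1 for DKO, with a sum of 516 CPM and a departure of -3.24 (SE 0.19, adjusted p = 3.99e-08); its near-identical relatives make its counts uncertain. DKO stayed above WT for Pira2 but below both single knockouts. Mcoln3, a lysosomal cation channel, had 7.65 to 8.11 CPM in WT, 13.8 to 17.7 for Cbl-/-, 14.2 to 15.2 for Cbl-b-/- and 4.01 to 5.02 for DKO and a departure of -2.64 (SE 0.16, adjusted p = 9.25e-09), with DKO below all other libraries. Neo1, a receptor for netrins and related ligands, had 3.18 to 4.18 CPM in WT, 30.3 to 31.2 for Cbl-/-, 6.62 to 9.93 for Cbl-b-/- and 11.6 to 13.1 for DKO. Its DKO libraries lay between Cbl-b-/- and Cbl-/-, and the departure was -2.56. Cxcl16, a chemokine, had 106 to 114 CPM in WT, 138 to 141 for Cbl-/-, 129 to 137 for Cbl-b-/- and 96.8 to 105 for DKO, and its DKO libraries lay below all 9 others with a departure of -0.76 (SE 0.07, adjusted p = 3.43e-06).

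The opposite shape, lowered by either loss and raised by both, was led by the neighbouring interferon-induced genes Ifi44 and Ifi44l, which lie 8.78 kb apart on chromosome 3. Ifi44 (ENSMUSG00000028037, chromosome 3, 151730922 to 151749960) had 35.5, 33.8 and 46.1 CPM in WT, 2.96, 3.02 and 4.76 for Cbl-/-, 20.3, 20.4 and 17.1 for Cbl-b-/- and 107, 106 and 144 for DKO. The 4 groups did not overlap, and the sum of 1.85 CPM was left behind by a departure of 6.01 (SE 0.25, adjusted p = 2.75e-09). Ifi44l had 10.5, 8.88 and 13.1 CPM in WT, 0.0651, 0.165 and 0 for Cbl-/-, 5.81, 5.11 and 5.79 for Cbl-b-/- and 27.8, 29.9 and 32.1 for DKO. The Cbl-/- values rest on 2, 4 and 0 reads, so the departure of 9.69 is imprecise in size. Both genes fell in Cbl-b-/- against WT (Ifi44 -0.99, Ifi44l -0.95). Plbd1, a phospholipase B-like protein of granules, fell in Cbl-/- but was not called in Cbl-b-/- (-0.53 (SE 0.17, adjusted p = 0.321)). It had 3.29 to 3.81 CPM in WT, 0.533 to 0.661 for Cbl-/-, 2.15 to 2.92 for Cbl-b-/- and 7.47 to 9.73 for DKO and a departure of 4.44 (SE 0.26, adjusted p = 7.67e-09). Cd74, the invariant chain that escorts MHC class II molecules, had 154, 156 and 151 CPM in WT, 96.9, 102 and 100.4 for Cbl-/-, 118, 126 and 126 for Cbl-b-/- and 195, 226 and 206 for DKO. It fell in Cbl-/- against WT by 0.62 and in Cbl-b-/- by 0.32 on the log2 scale and rose in DKO against each single knockout, with a departure of 1.38 (SE 0.08, adjusted p = 9.25e-09).

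**Figure D2:**
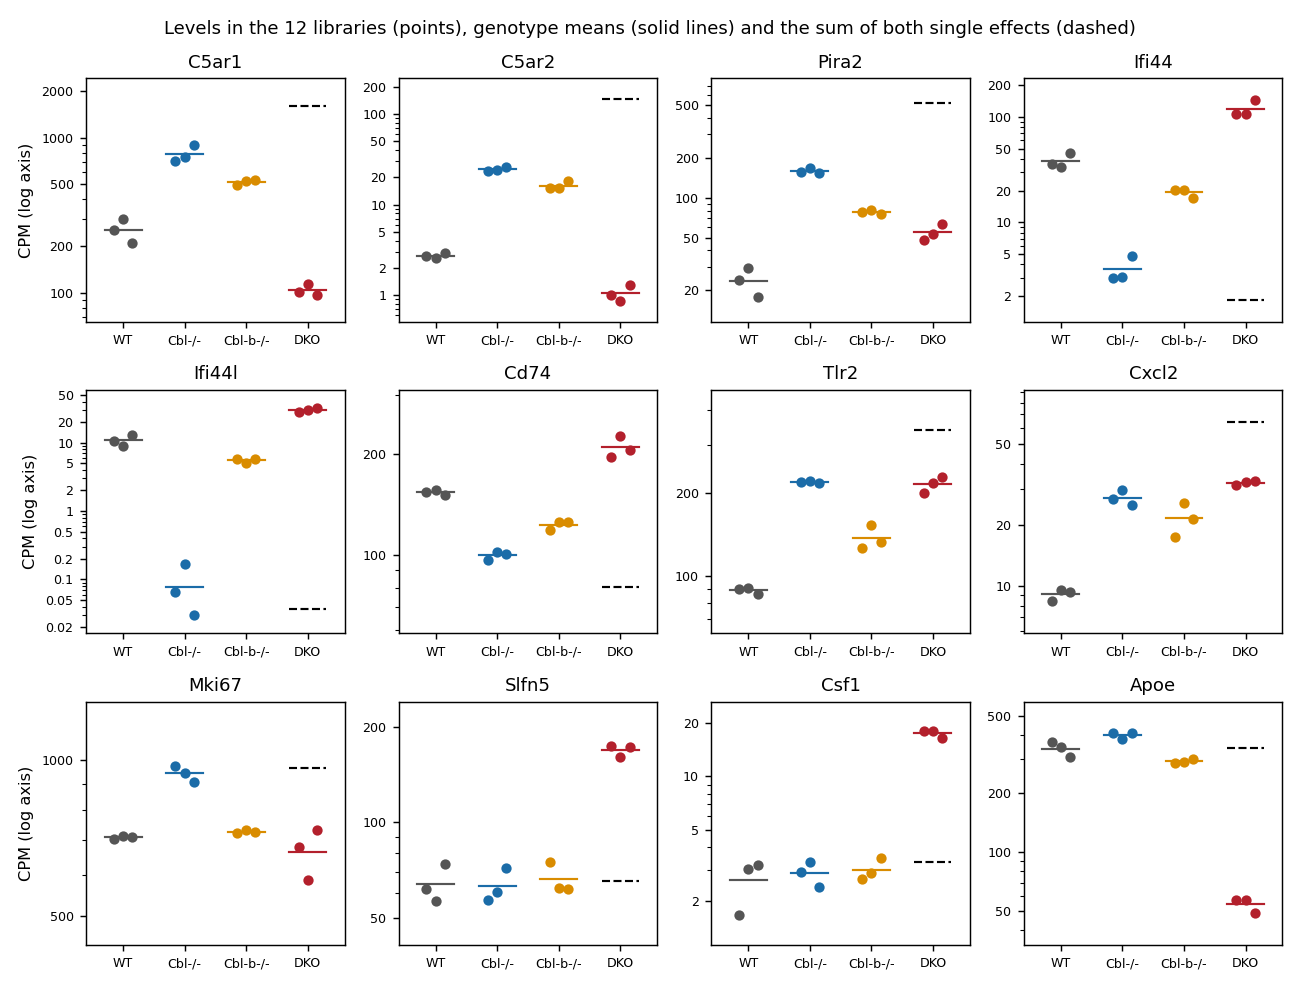
CPM on log axes in the 12 libraries for 12 genes, with genotype means as solid lines and the level given by the sum of both single effects as a dashed line over DKO; the Cbl-/- library with 0 reads of Ifi44l is drawn at the foot of its column. C5ar1, C5ar2 and Pira2 lie far below the dashed line, Ifi44, Ifi44l and Cd74 far above it, and Tlr2 in DKO matches its Cbl-/- level.

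Interferon-response genes departed above the sum almost throughout. Type I interferons act through receptor-bound kinases and a complex of transcription factors that includes STAT2 and IRF9 and binds the interferon-stimulated response element (ISRE) in target promoters. Of 31 interferon-stimulated antiviral genes, 30 were called above the sum and 0 below, against 8.39% and 7.28% of all genes, with a median departure of 1.02 against 0.0037. Their median effect of Cbl loss was 0.16 with Cbl-b present, where 3 rose and 2 fell (5.68% and 4.19% of all genes did), and 1.21 with Cbl-b absent, where all 31 rose (17.7% of all genes). The median effect of Cbl-b loss with Cbl present was 0.02, and 2 fell (0.0947% of all genes did). The list's median in single libraries lay at -0.17 to 0.21 log2 units from the WT mean in WT, -0.04 to 0.48 for Cbl-/-, -0.06 to 0.05 for Cbl-b-/- and 1.15 to 1.43 for DKO. The groups overlapped except DKO, and the highest libraries outside it were Cbl-/- 3 and WT 3. Across 20 alternative settings, 29 or 30 of the 31 were called above the sum. The 31st was Isg20, an exonuclease, with 1.51 to 2.47 CPM in WT, 1.98 to 3.22 for Cbl-/-, 2.12 to 3.05 for Cbl-b-/- and 5.41 to 6.46 for DKO and a departure of 0.72 (SE 0.33, adjusted p = 0.155); it was named for missing the threshold, after its values were seen.

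Slfn5, a member of the Schlafen family, had 61.9, 56.7 and 74.1 CPM in WT, 57.1, 60.4 and 72.01 for Cbl-/-, 74.9, 62.1 and 61.9 for Cbl-b-/- and 174, 161 and 172 for DKO. The 9 other libraries spanned one range and DKO lay above it, with a departure of 1.37 (SE 0.15, adjusted p = 1.22e-05). Stat2, a signal transducer of the interferon receptors, had 73.9 to 86.7 CPM in WT, 71.6 to 85.8 for Cbl-/-, 72.95 to 75.8 for Cbl-b-/- and 136 to 141 for DKO. Its departure was 0.89 (SE 0.10, adjusted p = 1.22e-05), and no Cbl effect was called for it with Cbl-b present. Irf7, which amplifies interferon production, had 26.5 to 39.9 CPM in WT, 29.8 to 49.8 for Cbl-/-, 29.1 to 33.7 for Cbl-b-/- and 106 to 129 for DKO and a departure of 1.56 (SE 0.26, adjusted p = 0.00173). In all, 5 of 15 STAT and IRF genes were above the sum and 0 below, and the median was 0.10, which was 0.17 without Cbl-b-/- 3, 0.15 with a filter of 5 CPM and -0.01 under total-count scaling. The count below was 2 under total-count scaling or without DKO 2, and 1 without Cbl-b-/- 1 or DKO 3. The cytosolic RNA sensors Ddx58 (RIG-I), Ifih1 (MDA5) and Dhx58 (LGP2) had departures of 0.86, 0.88 and 0.87. Of 16 ligands, receptors and sensors 6 were above and 1 below, with a median of 0.07; the 1 below was lost without any 1 WT or Cbl-/- library or without Cbl-b-/- 1 or 2. The guanylate-binding proteins and immunity-related GTPases, which attack vacuoles of intracellular microbes, had 7 of 12 above the sum and 0 below, with a median of 0.91. Gbp2 had 5.82 to 7.11 CPM in WT, 9.76 to 12.6 for Cbl-/-, 6.998 to 8.73 for Cbl-b-/- and 24.4 to 31.4 for DKO and a departure of 1.08 (SE 0.18, adjusted p = 0.000646). Gbp7 had 5.54 to 7.65 CPM in WT, 9.71 to 12.2 for Cbl-/-, 6.24 to 7.63 for Cbl-b-/- and 22.5 to 25.3 for DKO and a departure of 1.05 (SE 0.18, adjusted p = 0.000757). Both already rose in Cbl-/- against WT. Irgm1 had 48.5 to 61.5 CPM in WT, 51.9 to 67.7 for Cbl-/-, 51.4 to 56.6 for Cbl-b-/- and 104 to 119 for DKO and a departure of 0.92 (SE 0.15, adjusted p = 0.000472).

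The ISRE was searched in promoter windows of 250 bases before to 50 after each start in the RefSeq table (GRCm38.p6), as GAAA, any 2 bases and GAAA again, on either strand. It was present in 385 of 9795 tested genes with a window (3.93%) and in 1079 of the 27025 genes in the whole table (3.99%). Among genes called above the sum it was present in 83 of 827 (10.0%), and among those below in 26 of 707 (3.68%). The antiviral list held it in 14 of 25 and the guanylate-binding list in 8 of 8, while the NF-kB list held it in 0 of 16. A second pattern, GGGA, any 4 bases and CC, for the NF-kB family, was present on either strand in 22.9% of the whole table, 30.3% of tested genes, 31.2% of those above and 35.9% of those below. A match is a description of letters and not a bound site. Of the named genes of these lists with a window, Ifi44, Ifi44l, Irf7, Psme2, H2-Eb1 and H2-Aa had no match in it, and Ddx58 and Ifih1 had one that is not printed. The stretches below are 6 examples of genes that departed above the sum with a match before the start; each runs 5′ to 3′ on the gene's strand, with the match in capitals, and a match that begins with TTTC is the same pattern read on the other strand.
Stat2, chr10:128270248-128270325, plus strand, match 222 to 213 bases before the start: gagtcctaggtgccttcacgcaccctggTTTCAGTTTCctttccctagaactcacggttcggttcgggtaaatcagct
Slfn5, chr11:82951907-82951996, plus strand, match 155 to 146 bases before the start: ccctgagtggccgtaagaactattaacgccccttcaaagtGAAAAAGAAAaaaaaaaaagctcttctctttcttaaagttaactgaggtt
Irgm1, chr11:48871421-48871490, minus strand, overlapping matches 30 to 21 and 24 to 15 bases before the start: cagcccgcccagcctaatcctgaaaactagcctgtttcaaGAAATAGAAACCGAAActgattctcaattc
Gbp2, chr3:142620564-142620653, plus strand, match 59 to 50 bases before the start: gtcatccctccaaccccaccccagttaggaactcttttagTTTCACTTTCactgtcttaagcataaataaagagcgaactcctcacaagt
Gbp7, chr3:142530243-142530332, plus strand, match 53 to 44 bases before the start: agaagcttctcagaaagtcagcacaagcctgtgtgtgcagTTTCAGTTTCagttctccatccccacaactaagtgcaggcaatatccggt
H2-T23, chr17:36032776-36032865, minus strand, match 124 to 115 bases before the start: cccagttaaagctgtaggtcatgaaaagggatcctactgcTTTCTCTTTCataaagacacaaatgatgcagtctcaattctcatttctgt

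Antigen presentation departed upward in both classes, from different starting points. Of 15 genes of MHC class I presentation and the immunoproteasome, 12 were above the sum and 0 below, with a median of 0.38. Over all genes tested, 8.39% were above and 7.28% below. Under total-count scaling 7 of the 15 were above. Nlrc5, the transactivator of class I genes, had 37.8 to 46.7 CPM in WT, 39.6 to 42.4 for Cbl-/-, 39.9 to 44.98 for Cbl-b-/- and 65.98 to 72.96 for DKO and a departure of 0.72 (SE 0.11, adjusted p = 0.000321). H2-T23, which encodes the non-classical class I molecule Qa-1, had 49.9 to 58.3 CPM in WT, 42.5 to 45.9 for Cbl-/-, 54.7 to 56.8 for Cbl-b-/- and 64.2 to 78.1 for DKO. It fell in Cbl-/- against WT by 0.32 and rose in DKO against Cbl-b-/-, with a departure of 0.70 (SE 0.11, adjusted p = 0.000332). Psme2, a subunit of the proteasome activator PA28, departed by 0.54. In the class II list 5 of 11 were above the sum and 0 below, with a median of 0.44, which was 0.71 without WT 1 and 0.75 without Cbl-b-/- 2. It was 1.38 with the filter of 5 CPM in 3 libraries and 0.33 under total-count scaling. The median of this list was -0.33 for Cbl loss with Cbl-b present, -0.25 for Cbl-b loss with Cbl present and 0.58 for Cbl loss with Cbl-b absent. H2-Eb1, a class II beta chain, had 22.4, 22.7 and 22.8 CPM in WT, 10.2, 11.8 and 10.9 for Cbl-/-, 16.9, 18.7 and 16.1 for Cbl-b-/- and 28.04, 35.4 and 29.6 for DKO. Cbl-/- was lowest, Cbl-b-/- lay between it and WT, DKO was highest, and the 4 groups did not overlap, with a departure of 1.89 (SE 0.13, adjusted p = 7.29e-08). H2-Aa, an alpha chain, followed the same order with 33.3 to 37.1 CPM in WT, 17.99 to 20.7 for Cbl-/-, 27.2 to 32.2 for Cbl-b-/- and 44.4 to 51.3 for DKO and a departure of 1.54 (SE 0.12, adjusted p = 1.64e-07).

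NF-kB genes, which drive inflammatory responses downstream of Toll-like receptors, rose with Cbl loss for the most part, and most did not depart from the sum by the test. Of 22 subunits and targets, 17 rose in Cbl-/- against WT (5.68% of all genes did), with a median of 0.75. In DKO against Cbl-b-/- 13 rose (17.7% of all genes did), with a median of 0.42. In Cbl-b-/- against WT 4 rose (0.395% of all genes did), with a median of 0.29. The median departure was -0.19, with 2 called above the sum and 4 below, against 8.39% and 7.28% of all genes. Under total-count scaling 11 were below. The list's median lay at 0.69 to 0.72 log2 units above the WT mean in Cbl-/-, 0.16 to 0.30 for Cbl-b-/- and 0.70 to 0.74 for DKO, so DKO and Cbl-/- were at about one level. Sod2, the mitochondrial superoxide dismutase, had 73.4, 74.3 and 67.3 CPM in WT, 122, 129 and 133 for Cbl-/-, 91.3, 99.5 and 95.97 for Cbl-b-/- and 123, 127 and 136 for DKO. Its sum was 170.4 CPM and its departure -0.41 (SE 0.09, adjusted p = 0.00348), and DKO minus Cbl-/- was 0.01 (SE 0.06, adjusted p = 0.958). Cd40, a costimulatory receptor, had 0.821 to 1.21 CPM in WT, 6.28 to 6.87 for Cbl-/-, 1.25 to 1.45 for Cbl-b-/- and 1.78 to 1.88 for DKO. It rose in Cbl-/- against WT, while DKO minus Cbl-b-/- was 0.42 (SE 0.20, adjusted p = 0.109), and it departed by -2.19 (SE 0.27, adjusted p = 4.02e-05). Ptgs2, the inducible cyclooxygenase, was above the sum at 1.22 (SE 0.25, adjusted p = 0.00383).

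In 17 genes called below the sum, a rise with Cbl-b loss was called where Cbl was present, and DKO was not called different from Cbl-/-. The 4 of them picked by the naming rule also rose in Cbl-/- against WT. Tlr2, a receptor for bacterial lipopeptides, had 89.9, 90.1 and 86.3 CPM in WT, 220.2, 222 and 217 for Cbl-/-, 126, 154 and 133 for Cbl-b-/- and 199.99, 217 and 229 for DKO. DKO overlapped Cbl-/- for Tlr2, with a difference of -0.03 (SE 0.07, adjusted p = 0.803), and lay well under the sum of 341 CPM, with a departure of -0.66 (SE 0.10, adjusted p = 0.000223). Gpr84, a receptor for medium-chain fatty acids, had 29.4 to 36.00 CPM in WT, 86.3 to 93.99 for Cbl-/-, 40.5 to 60.8 for Cbl-b-/- and 69.1 to 88.4 for DKO, a difference between DKO and Cbl-/- of -0.19 (SE 0.12, adjusted p = 0.281) and a departure of -0.85 (SE 0.18, adjusted p = 0.00425). Socs3, a feedback inhibitor of cytokine receptors, had 5.07 to 6.13 CPM in WT, 18.1 to 19.5 for Cbl-/-, 9.70 to 10.7 for Cbl-b-/- and 18.7 to 24.5 for DKO, with a difference of 0.17 (SE 0.10, adjusted p = 0.216) and a departure of -0.66 (SE 0.15, adjusted p = 0.00674). Cxcl2, a neutrophil-attracting chemokine, had 8.42, 9.52 and 9.36 CPM in WT, 26.7, 29.6 and 25.03 for Cbl-/-, 17.5, 25.6 and 21.5 for Cbl-b-/- and 31.5, 32.3 and 32.98 for DKO. Its DKO libraries lay above all others, although the difference from Cbl-/- was not called. They lay below the sum of 64.1 CPM, with a departure of -0.99 (SE 0.16, adjusted p = 0.000449). Plau, the urokinase protease, fell with either loss and had 884 to 1147 CPM in WT, 523 to 557 for Cbl-/-, 589 to 754 for Cbl-b-/- and 566 to 574 for DKO; DKO minus Cbl-/- was 0.08 (SE 0.09, adjusted p = 0.579), and it lay above the sum by 0.70 (SE 0.13, adjusted p = 0.00161). A difference that misses the threshold does not show that DKO and Cbl-/- were equal.

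Chemokine and cytokine genes departed in both directions. Of 16 chemokine ligands 7 were above the sum and 3 below, with a median of 0.62. Ccl2, the main monocyte attractant, had 128, 153 and 129 CPM in WT, 206, 227 and 232 for Cbl-/-, 139, 171 and 148 for Cbl-b-/- and 559, 562 and 614 for DKO. Cbl-/- lay above WT, Cbl-b-/- overlapped WT, DKO lay above all others, and the departure was 1.23 (SE 0.12, adjusted p = 2.61e-06). Cxcl14 had 87.7 to 90.1 CPM in WT, 43.9 to 46.1 for Cbl-/-, 62.3 to 68.6 for Cbl-b-/- and 15.5 to 18.04 for DKO: each loss lowered it, and DKO fell below the sum of 33.04 CPM with a departure of -0.997 (SE 0.09, adjusted p = 1.39e-06). Of 13 cytokines and antagonists 5 were above and 2 below, with a median of 0.0092, which changed sign under total-count scaling (-0.10). Csf1, which encodes the ligand of the CSF-1 receptor, had 1.67, 3.03 and 3.18 CPM in WT, 2.93, 3.31 and 2.41 for Cbl-/-, 2.67, 2.86 and 3.49 for Cbl-b-/- and 17.98, 17.9 and 16.5 for DKO. The 9 other libraries lay between 1.67 and 3.49 CPM, and DKO departed from the sum by 2.41 (SE 0.28, adjusted p = 1.89e-05). Il1rn, the interleukin 1 receptor antagonist, had 8.54 to 9.18 CPM in WT, 13.9 to 15.8 for Cbl-/-, 8.10 to 10.7 for Cbl-b-/- and 33.7 to 39.4 for DKO and a departure of 1.23 (SE 0.15, adjusted p = 2.45e-05). Tnfsf9, the ligand of 4-1BB, had 27.3 to 30.8 CPM in WT, 25.7 to 27.6 for Cbl-/-, 27.7 to 33.2 for Cbl-b-/- and 12.9 to 14.3 for DKO and a departure of -1.07 (SE 0.12, adjusted p = 1.15e-05).

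Most receptors and feedback genes of growth-factor signalling were not called, and the calls went in both directions. Over all genes tested, 8.39% were called above the sum and 7.28% below. Csf1r, the CSF-1 receptor, had 2283, 2295 and 2041 CPM in WT, 2175, 2164 and 2239.6 for Cbl-/-, 2205, 2285 and 2398 for Cbl-b-/- and 1728, 1789 and 1611 for DKO. The 9 other libraries overlapped, and DKO lay below them with a departure of -0.42 (SE 0.08, adjusted p = 0.00247). Igf1r, the receptor for insulin-like growth factor 1, had 9.68 to 10.9 CPM in WT, 10.5 to 10.99 for Cbl-/-, 8.09 to 12.6 for Cbl-b-/- and 5.02 to 5.82 for DKO and departed by -0.99 (SE 0.19, adjusted p = 0.00176). Met, the hepatocyte growth factor receptor and a known Cbl target, had 3.05, 3.46 and 3.86 CPM in WT, 8.33, 9.96 and 8.58 for Cbl-/-, 1.97, 2.25 and 2.71 for Cbl-b-/- and 20.7, 17.7 and 23.1 for DKO. Cbl-/- lay above WT, DKO lay above all others, and the departure was 1.79 (SE 0.21, adjusted p = 1.8e-05). Of 13 receptors 2 were above the sum and 4 below, with a median of -0.34 that ranged from -0.27 to -0.06 with 1 library left out. The other receptor above was Csf2rb, a subunit of the GM-CSF receptor, at 0.33; it was named after its values were seen. The count of 2 was 1 without WT 1, WT 3, Cbl-/- 1 or Cbl-b-/- 3. Dusp6, the phosphatase that restrains ERK, had 135 to 184 CPM in WT, 112 to 135 for Cbl-/-, 162 to 180.2 for Cbl-b-/- and 59.7 to 64.7 for DKO and a departure of -1.08 (SE 0.13, adjusted p = 3.95e-05). Etv5, an ERK-induced factor, had 140.0 to 155 CPM in WT, 127 to 141 for Cbl-/-, 134 to 145 for Cbl-b-/- and 66.7 to 76.9 for DKO and a departure of -0.78 (SE 0.09, adjusted p = 2.73e-05). Atf3, a stress-induced factor, was above the sum at 0.83 (SE 0.09, adjusted p = 1.3e-05). Of 23 ERK feedback and immediate early genes 1 was above and 6 below, with a median of -0.19; the median was -0.05 without DKO 3, and the count above was 2 without WT 2. In the list of 18 ligases and partners, which holds Cbl and Cblb themselves, 3 were below, Cbl among them, and 0 above (1 without DKO 2 and 3 without DKO 3), with a median of -0.05. Another was Ubash3b, a phosphatase that binds Cbl, with 92.5 to 103 CPM in WT, 124 to 141 for Cbl-/-, 103 to 104 for Cbl-b-/- and 101 to 104 for DKO and a departure of -0.40 (SE 0.08, adjusted p = 0.00357). Ubash3b lies 2.98 Mb from the targeted Cbl gene on chromosome 9, and an effect of linked alleles was not tested. The last was Spry1 at -1.87, which lost its call in 13 of the 19 alternative settings that tested it. Irs2, an adaptor of insulin and cytokine receptors, had 12.9 to 15.3 CPM in WT, 11.4 to 14.7 for Cbl-/-, 13.1 to 16.8 for Cbl-b-/- and 3.39 to 4.88 for DKO and a departure of -1.85 (SE 0.20, adjusted p = 9.11e-06). Of 13 SOCS proteins and other inhibitors of cytokine signalling, 1 was above the sum and 1 below, Socs3. The 1 above, Ptpn22, lost its call in 10 of the 20 alternative settings, among them those without WT 3, any 1 Cbl-/- library, Cbl-b-/- 3, DKO 2 or DKO 3.

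Most macrophage identity genes departed downward and most monocyte and granule genes upward. The macrophage list summed to 23608 to 26199 CPM in WT, 20778 to 21713 for Cbl-/-, 24213 to 26476 for Cbl-b-/- and 19091 to 22466 for DKO; of 28 genes Timd4 was absent from the table and 25 were tested. Of these 16 were below the sum and 2 above, with a median of -0.58. The remaining 7 were not called. Among them were Cd68 at 0.22, Lyz2 at 0.14, Spi1 at 0.10, Msr1 at -0.04 and Adgre1 at -0.16. Trem2 was called above the sum at 0.30 but lost its call in 10 of the 20 alternative settings. These genes were named after their values were seen. The list's median in single libraries lay at -0.19 to -0.14 log2 units from the WT mean in Cbl-/-, -0.08 to -0.04 for Cbl-b-/- and -1.02 to -0.91 for DKO. In bulk RNA, fewer cells of a type and less RNA per cell cannot be told apart. Apoe, the lipid carrier, had 367, 345 and 306 CPM in WT, 408, 381 and 408 for Cbl-/-, 287, 289 and 300.5 for Cbl-b-/- and 57.1, 57.3 and 48.6 for DKO. DKO lay far below the other 9 libraries, which span 287 to 408 CPM, and the departure was -2.66 (SE 0.10, adjusted p = 3.75e-11). Slco2b1, an organic anion transporter, had 11.2 to 13.9 CPM in WT, 4.05 to 6.05 for Cbl-/-, 9.87 to 13.6 for Cbl-b-/- and 0.318 to 0.641 for DKO and a departure of -3.43 (SE 0.30, adjusted p = 8.08e-07). Fcrls, an Fc receptor-like protein of tissue macrophages, had 95.1 to 142 CPM in WT, 71.4 to 77.4 for Cbl-/-, 116 to 135 for Cbl-b-/- and 7.41 to 9.43 for DKO and a departure of -3.24 (SE 0.18, adjusted p = 1.34e-08). Both fell in Cbl-/- and fell further in DKO. Mrc1, the mannose receptor, had 44.5 to 72.00 CPM in WT, 82.4 to 92.1 for Cbl-/-, 50.6 to 67.7 for Cbl-b-/- and 14.6 to 16.3 for DKO: Cbl-/- lay above WT, DKO below it, and the departure was -2.59 (SE 0.21, adjusted p = 2.88e-06). The count of 2 above was 1 without WT 1, WT 3, Cbl-/- 2, Cbl-/- 3, any 1 Cbl-b-/- library or DKO 2.

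Of 11 monocyte genes 6 were above the sum and 0 below (1 below without DKO 3), against 8.39% and 7.28% of all genes. The median was 1.46, which was 0.88 without WT 3. With the filter of 5 CPM in 3 libraries, 4 were above and the median was 0.73. The list summed to 1795 to 2116 CPM in WT, 1563 to 1868 for Cbl-/-, 1820 to 2080 for Cbl-b-/- and 2194 to 2215 for DKO. Vcan, a matrix proteoglycan, had 12.5, 13.6 and 12.3 CPM in WT, 24.98, 29.6 and 28.4 for Cbl-/-, 20.1, 22.4 and 20.4 for Cbl-b-/- and 72.9, 66.6 and 86.6 for DKO. Each loss raised it, DKO lay above all others, and it exceeded the sum of 45.2 CPM by 0.74 (SE 0.14, adjusted p = 0.00147). Chil3, a chitinase-like protein, had 0.214 to 0.322 CPM in WT, 0.0413 to 0.224 for Cbl-/-, 0.0919 to 0.611 for Cbl-b-/- and 12.6 to 19.2 for DKO and a departure of 6.30 (SE 0.71, adjusted p = 1.49e-05). Fn1, fibronectin, had 3.05 to 4.31 CPM in WT, 2.02 to 2.83 for Cbl-/-, 1.79 to 2.76 for Cbl-b-/- and 5.96 to 9.96 for DKO and a departure of 2.26 (SE 0.32, adjusted p = 0.000136). Of 9 neutrophil and granule genes 6 were above and 1 below, with a median of 3.02. S100a9, a subunit of calprotectin, had 0.785, 0.616 and 0.750 CPM in WT, 1.37, 1.82 and 1.01 for Cbl-/-, 0.755, 0.803 and 1.15 for Cbl-b-/- and 26.9, 26.7 and 39.3 for DKO. DKO lay above 26 CPM and the other 9 libraries below 2, and the departure was 4.21 (SE 0.38, adjusted p = 1.31e-06). S100a8, the other subunit, had 1.05 to 1.25 CPM in WT, 1.24 to 1.79 for Cbl-/-, 1.01 to 1.42 for Cbl-b-/- and 12.4 to 23.3 for DKO and departed by 3.42 (SE 0.38, adjusted p = 1.22e-05). Ltf, lactoferrin, had 0.539 to 1.09 CPM in WT, 0.673 to 1.14 for Cbl-/-, 0.482 to 0.827 for Cbl-b-/- and 8.94 to 10.6 for DKO and departed by 3.68 (SE 0.40, adjusted p = 9.82e-06). Mmp8, a collagenase, went the other way with 28.3 to 34.4 CPM in WT, 42.9 to 45.4 for Cbl-/-, 38.6 to 49.98 for Cbl-b-/- and 17.02 to 23.5 for DKO and a departure of -1.59 (SE 0.16, adjusted p = 3.43e-06). Serpinb1a, an inhibitor of neutrophil proteases, had 2.41 to 2.71 CPM in WT, 3.72 to 5.01 for Cbl-/-, 1.19 to 2.99 for Cbl-b-/- and 33.8 to 36.7 for DKO and a departure of 3.10 (SE 0.27, adjusted p = 1.04e-06).

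Summed markers of several other cell types were higher in DKO than in WT, at low levels. The neutrophil list summed to 34.0 to 41.9 CPM in WT, 51.4 to 54.0 for Cbl-/-, 45.1 to 57.0 for Cbl-b-/- and 108 to 132 for DKO, while Elane, Mpo, Ly6g, Camp and Retnlg were absent from the table, which requires a read in WT 1. The dendritic cell list summed to 17.3 to 20.8 CPM in WT and 32.8 to 36.7 in DKO (3 of 6 above the sum), and the stromal list to 27.8 to 34.7 in WT and 39.5 to 45.3 in DKO (3 of 6 above). B-cell markers summed to 59.7 to 68.4 CPM in WT and 81.4 to 92.1 in DKO (2 of 3 above), and Ms4a1, Pax5 and Ebf1 were absent from the table. Osteoclast markers summed to 314 to 345 CPM in WT and 346 to 363 in DKO (4 of 8 above), and progenitor markers to 114 to 128 in WT and 110.2 to 114 in DKO (2 of 8 above and 1 below). Col1a1, a collagen of stromal cells, had 1.19 to 2.64 CPM in WT, 2.24 to 3.84 for Cbl-/-, 0.138 to 0.450 for Cbl-b-/- and 5.94 to 7.94 for DKO, and Ctsg, a granule protease of progenitors and neutrophils, had 0.0714 to 0.179 CPM in WT, 0.0325 to 0.165 for Cbl-/-, 0 to 0.354 for Cbl-b-/- and 2.87 to 3.56 for DKO. T-cell, mast-cell and eosinophil markers stayed under 6 CPM in sum in every library, and 1 of their 6 tested genes, Gata2, was above the sum. The erythroid and megakaryocyte list summed to 62.7 to 75.0 CPM in WT and 29.1 to 33.6 for DKO, with no haemoglobin gene in the table. Most of that sum was Pf4, which macrophages also make and which had 62.1 to 74.3 CPM in WT, 69.3 to 79.6 for Cbl-/-, 73.9 to 90.2 for Cbl-b-/- and 28.7 to 32.8 for DKO and a departure of -1.54 (SE 0.12, adjusted p = 2.95e-07). The part of such cells in the departures was not tested. Without 1 library, no count in this paragraph moved by over 1.5 times. The filter of 5 CPM in 3 libraries did move them. It left 1 gene above the sum in each of the dendritic and stromal lists and 0 in the progenitor and mast-cell lists. The B-cell count stayed at 2 and the osteoclast count was 3. DESeq2's own test gave 4 progenitor genes above.

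**Figure D3:**
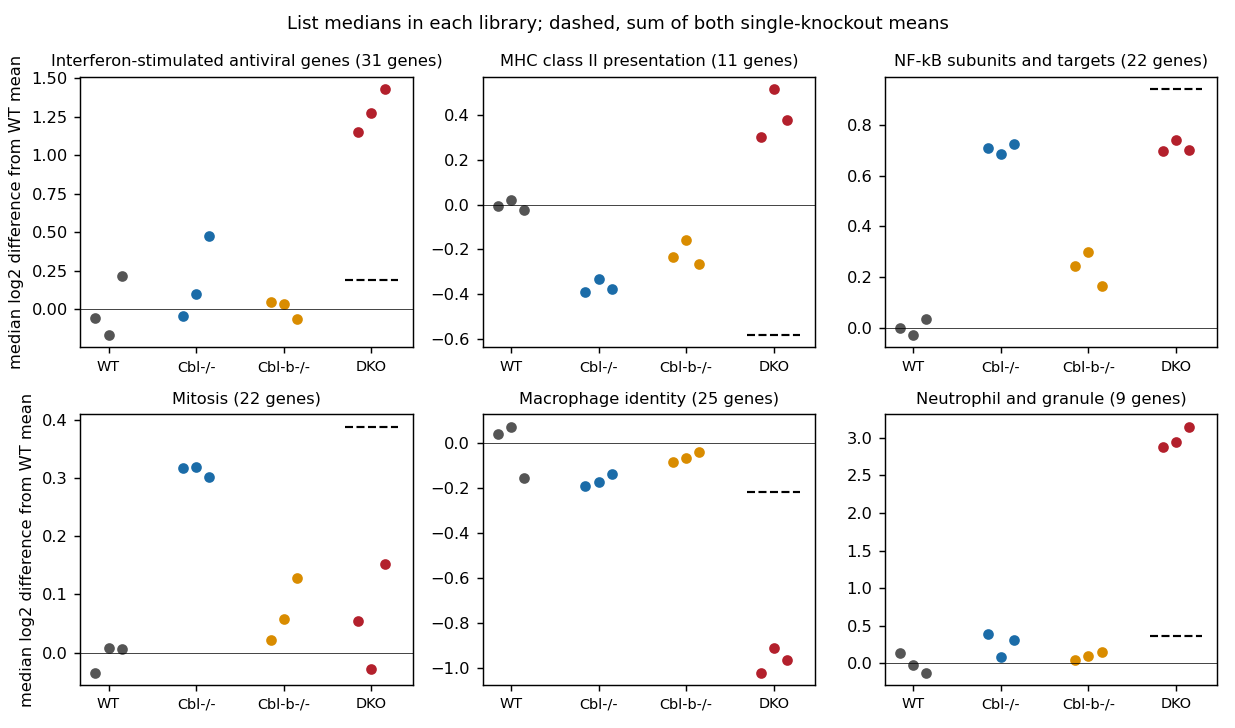
Median log2 difference from the WT mean over 6 gene lists, 1 point per library, with the sum of both single-knockout means dashed over DKO. Before the logarithm 0.5 was added to each CPM, which shrinks differences in lists at low levels. DKO lies above the dashed line for the antiviral, MHC class II and neutrophil lists (2.88 to 3.15 for the last) and below it for the NF-kB, mitosis and macrophage identity lists.

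Most mitosis genes rose with Cbl loss where Cbl-b was present, and few did where it was absent. Of 22, 19 rose in Cbl-/- against WT (5.68% of all genes did), with a median of 0.29. In DKO against Cbl-b-/- 2 rose and 1 fell, with a median of -0.01. Of all genes, 17.7% rose and 15.6% fell in that comparison. The departure was called below the sum in 13 and above in 0, against 7.28% and 8.39% of all genes, with a median of -0.30. Mki67, the proliferation marker Ki-67, had 705, 715 and 711 CPM in WT, 975, 946 and 908 for Cbl-/-, 723, 734 and 726 for Cbl-b-/- and 680.3, 585 and 732 for DKO. Cbl-/- lay above all other libraries, the DKO libraries spread across the WT level, and the departure was -0.54 (SE 0.09, adjusted p = 0.000805). Cdk1, the mitotic kinase, had 119.6 to 122 CPM in WT, 145 to 150.2 for Cbl-/-, 119.7 to 129 for Cbl-b-/- and 114 to 118 for DKO and a departure of -0.38 (SE 0.07, adjusted p = 0.00147). Aurkb, a kinase of chromosome segregation, had 76.2 to 77.5 CPM in WT, 84.4 to 93.00 for Cbl-/-, 74.3 to 85.8 for Cbl-b-/- and 67.04 to 70.9 for DKO and a departure of -0.42 (SE 0.09, adjusted p = 0.00343). Under total-count scaling 18 were below. The 13 became 7 without WT 1 or Cbl-/- 2 and 8 without Cbl-b-/- 3. Of 22 DNA replication genes 5 were below the sum and 2 above, with a median of -0.19. Those 5 became 1 without WT 1, WT 2 or Cbl-/- 1, 3 without Cbl-/- 2, 0 without Cbl-/- 3, 2 without Cbl-b-/- 1 or 3 and 11 without DKO 3, and total-count scaling gave 10. Pcna, the sliding clamp of DNA polymerase, was above the sum at 0.72 (SE 0.15, adjusted p = 0.0052).

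Lipid-handling genes departed in both directions. Abcg1, a cholesterol exporter, had 41.04, 39.6 and 49.1 CPM in WT, 37.2, 34.7 and 36.6 for Cbl-/-, 46.02, 40.9 and 48.7 for Cbl-b-/- and 106, 104 and 97.9 for DKO. DKO lay above all others, and the departure was 1.44 (SE 0.12, adjusted p = 3.03e-07). Ch25h, which makes 25-hydroxycholesterol, had 17.9 to 28.7 CPM in WT, 13.5 to 18.3 for Cbl-/-, 19.6 to 26.4 for Cbl-b-/- and 3.99 to 4.83 for DKO and a departure of -1.79 (SE 0.23, adjusted p = 8.73e-05). Of 14 targets of the sterol-sensing receptor LXR and lipid-handling genes, 6 were above the sum and 3 below, with a median of 0.22. Scd2, a desaturase that makes monounsaturated fatty acids, had 44.6 to 49.3 CPM in WT, 45.9 to 48.9 for Cbl-/-, 50.1 to 53.9 for Cbl-b-/- and 108 to 117 for DKO and a departure of 1.09 (SE 0.09, adjusted p = 2.67e-07). Its neighbour Scd1, 87.6 kb away, had 0.898 to 0.929 CPM in WT, 1.65 to 1.90 for Cbl-/-, 0.639 to 1.19 for Cbl-b-/- and 5.92 to 6.995 for DKO and a departure of 1.81 (SE 0.31, adjusted p = 0.00082). Of 22 genes of cholesterol and fatty acid synthesis 5 were above and 0 below, with a median of 0.12, and the count above was 3 without any 1 of the 9 libraries outside DKO and under total-count scaling. The count below was then 3 under total-count scaling and 2 without DKO 2.

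Glycolysis, respiratory chain and ribosomal protein lists had small positive medians, not far from the shift that scaling made. Glycolysis had 7 of 17 above the sum (13 without DKO 3) with a median of 0.23, the respiratory chain 10 of 20 with 0.24 and ribosomal proteins 9 of 20 with 0.26. In these lists 1 gene was below the sum, the ribosomal protein gene Rpl29, at -5.18. Under total-count scaling the counts above were 6, 3 and 2 and the medians 0.12, 0.13 and 0.15. Without any 1 of the 9 libraries outside DKO the respiratory chain had 4 to 6 above, and ribosomal proteins had 4 or 5 above without WT 2, WT 3, Cbl-/- 1, Cbl-/- 3, Cbl-b-/- 1 or Cbl-b-/- 3. Hk3, a hexokinase of myeloid cells, had 249 to 263 CPM in WT, 222 to 229 for Cbl-/-, 229 to 242 for Cbl-b-/- and 309 to 352 for DKO and a departure of 0.70 (SE 0.08, adjusted p = 1.7e-05). Sdhc, a subunit of complex II, had 135 to 142 CPM in WT, 129.8 to 129.9 for Cbl-/-, 124 to 138 for Cbl-b-/- and 169 to 188 for DKO and a departure of 0.53 (SE 0.08, adjusted p = 0.00025). Ldha, lactate dehydrogenase, had 1132 to 1159.5 CPM in WT, 1173 to 1192 for Cbl-/-, 1033 to 1105 for Cbl-b-/- and 1461 to 1587 for DKO and departed by 0.45, and Rps3, a ribosomal protein, departed by 0.30. Of 12 genes of the NRF2 antioxidant response 3 were above and 5 below, with a median of 0.17. This median was 0.055 without DKO 3, 0.078 without Cbl-b-/- 3, 0.10 without Cbl-/- 3 and 0.06 under total-count scaling, where 1 was above. Nqo1, a quinone reductase, had 30.1 to 32.9 CPM in WT, 41.1 to 43.2 for Cbl-/-, 35.8 to 40.4 for Cbl-b-/- and 27.3 to 31.7 for DKO: it rose in Cbl-/- against WT, fell in DKO against Cbl-b-/-, and departed by -0.84 (SE 0.10, adjusted p = 3.71e-05). Gclc, the rate-limiting enzyme of glutathione synthesis, had 142 to 158 CPM in WT, 143 to 145 for Cbl-/-, 148 to 155 for Cbl-b-/- and 83.6 to 102 for DKO and a departure of -0.68 (SE 0.10, adjusted p = 0.000141). Of 14 genes of the unfolded protein and ATF4 responses 1 was above and 6 below, with a median of 0.0026; the count above was 3 without DKO 1 or DKO 2 and 2 without DKO 3. Asns, which makes asparagine, had 60.99 to 62.7 CPM in WT, 62.00 to 68.96 for Cbl-/-, 61.01 to 70.7 for Cbl-b-/- and 42.97 to 48.5 for DKO and a departure of -0.62 (SE 0.10, adjusted p = 0.000321). The plot of list members called shows these counts as shares.

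**Figure D4:**
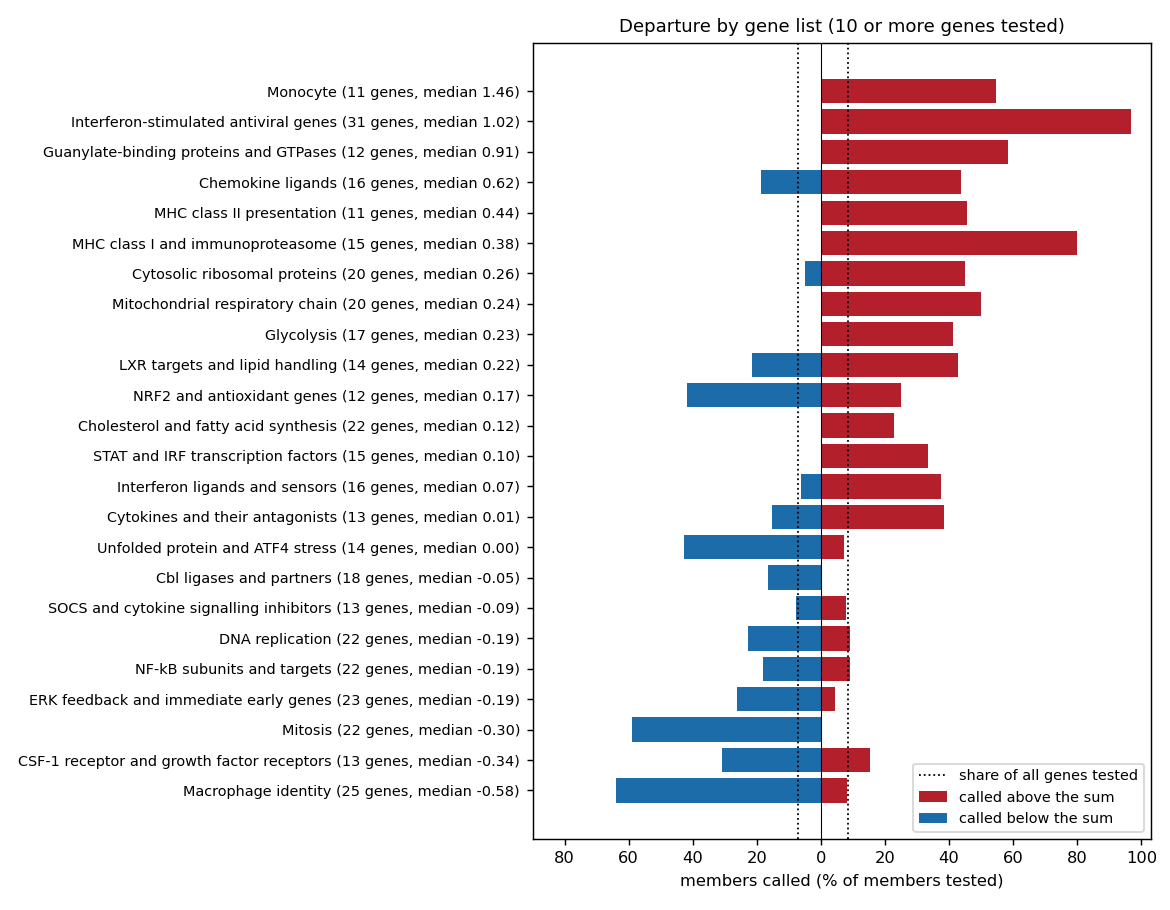
Share of tested members called above the sum (red, to the right) and below it (blue, to the left) for each list with at least 10 genes tested, ordered by median departure; dotted lines mark 8.39% and 7.28%, the shares over all genes tested. The antiviral list has 30 of 31 above, and the macrophage identity list 16 of 25 below.

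A further group of large departures came from Cbl-/- lying far from every other group, DKO included. Stard13, a protein with a lipid-transfer domain, had 20.9, 21.3 and 18.4 CPM in WT, 0.553, 0.165 and 0.364 for Cbl-/-, 17.8, 18.4 and 17.04 for Cbl-b-/- and 13.4, 12.6 and 11.6 for DKO. Cbl-/- was almost without reads of it. DKO lay 5.05 log2 units above Cbl-/- and fell by 0.69 against WT, and the departure was 5.24 (SE 0.23, adjusted p = 1.17e-10). Cers4, a ceramide synthase, had 35.4 to 40.9 CPM in WT, 2.11 to 2.80 for Cbl-/-, 37.8 to 38.2 for Cbl-b-/- and 30.7 to 31.8 for DKO and a departure of 3.65 (SE 0.13, adjusted p = 1.18e-11). Atp10d, a lipid flippase, had 33.7 to 37.3 CPM in WT, 5.30 to 7.04 for Cbl-/-, 33.4 to 39.6 for Cbl-b-/- and 40.5 to 44.1 for DKO and a departure of 2.75 (SE 0.13, adjusted p = 7.06e-10). Hmga1b had 217 to 274 CPM in WT, 1.40 to 3.45 for Cbl-/-, 186 to 220.5 for Cbl-b-/- and 234 to 349 for DKO and a departure of 7.38 (SE 0.33, adjusted p = 9.11e-08); it is a near-identical copy of Hmga1, so its reads are uncertain. In the other direction Uchl1, a deubiquitinating enzyme, had 13.4, 12.9 and 16.01 CPM in WT, 196, 198 and 207 for Cbl-/-, 12.1, 12.5 and 12.3 for Cbl-b-/- and 23.4, 26.7 and 23.7 for DKO. It rose in both backgrounds, by 3.84 with Cbl-b present and 1.00 with it absent, and departed by -2.84 (SE 0.11, adjusted p = 3.75e-11). Fkbp9, a prolyl isomerase, had 0.929 to 1.03 CPM in WT, 9.09 to 11.6 for Cbl-/-, 1.39 to 1.67 for Cbl-b-/- and 1.23 to 1.81 for DKO and a departure of -3.33 (SE 0.27, adjusted p = 3.97e-07). Flt1, a receptor for vascular endothelial growth factor, had 17.6 to 19.3 CPM in WT, 50.4 to 52.6 for Cbl-/-, 15.99 to 22.04 for Cbl-b-/- and 14.6 to 20.3 for DKO and a departure of -1.57 (SE 0.17, adjusted p = 7.4e-06).

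In other genes the effect of Cbl loss turned round when Cbl-b was absent, without a called effect of Cbl-b loss alone. Fam162a, a mitochondrial protein induced in low oxygen, had 4.66, 5.23 and 6.40 CPM in WT, 27.97, 32.1 and 25.5 for Cbl-/-, 5.05, 6.36 and 3.26 for Cbl-b-/- and 2.42, 2.07 and 2.96 for DKO. Cbl-/- lay above all others and DKO below all others, and the departure was -3.39 (SE 0.27, adjusted p = 4.24e-07). Ets1, a transcription factor, had 3.75 to 4.24 CPM in WT, 10.5 to 11.9 for Cbl-/-, 3.81 to 4.02 for Cbl-b-/- and 1.91 to 2.29 for DKO and a departure of -2.37 (SE 0.18, adjusted p = 2.07e-07). Col4a2, a basement membrane collagen, had 59.9 to 79.9 CPM in WT, 135 to 143 for Cbl-/-, 75.1 to 88.3 for Cbl-b-/- and 29.8 to 38.8 for DKO and a departure of -2.32 (SE 0.15, adjusted p = 7.29e-08). The reverse held for Akap2, an anchor of protein kinase A, with 49.6 to 68.2 CPM in WT, 14.4 to 17.2 for Cbl-/-, 44.1 to 61.4 for Cbl-b-/- and 171 to 180.1 for DKO and a departure of 3.63 (SE 0.17, adjusted p = 1.6e-09). Bcl2a1d, an anti-apoptotic protein, had 3.78 to 4.65 CPM in WT, 0.578 to 1.21 for Cbl-/-, 2.11 to 4.79 for Cbl-b-/- and 7.94 to 8.72 for DKO and a departure of 3.37 (SE 0.37, adjusted p = 1.14e-05), but its near-identical copies make the counts uncertain. Thbs1, the matrix protein thrombospondin 1, had a called effect of Cbl loss only in the comparison of DKO with Cbl-b-/-. It had 2.39 to 3.54 CPM in WT, 1.54 to 3.35 for Cbl-/-, 1.74 to 2.43 for Cbl-b-/- and 11.2 to 12.1 for DKO and a departure of 2.74 (SE 0.32, adjusted p = 2.52e-05).

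Some departures sat beside one another or near the targeted genes on the genome. Rpl29, a ribosomal protein with processed copies elsewhere, had 319.9, 332 and 345 CPM in WT, 338, 348 and 329 for Cbl-/-, 184, 220.2 and 204 for Cbl-b-/- and 4.24, 6.14 and 6.60 for DKO. Rpl29 was lowest in DKO, was lower in Cbl-b-/- against WT too (-0.71), and departed by -5.18 (SE 0.15, adjusted p = 6.55e-13). Abhd14b, 15.9 kb from it on chromosome 9, had 12.5 to 13.9 CPM in WT, 12.3 to 14.7 for Cbl-/-, 8.10 to 9.14 for Cbl-b-/- and 4.40 to 4.99 for DKO, was also lower in Cbl-b-/- against WT (-0.66) and departed by -0.84 (SE 0.15, adjusted p = 0.000998). Tbc1d23, 4.96 Mb from Cblb on chromosome 16, had 75.1 to 78.3 CPM in WT, 46.98 to 49.9 for Cbl-/-, 107 to 114 for Cbl-b-/- and 109 to 139.9 for DKO and a departure of 0.80 (SE 0.11, adjusted p = 0.000113). Within 10 Mb of Cbl 25 of 119 tested genes were called (21%), and within 10 Mb of Cblb 11 of 52 (21.2%), against 15.7% of all genes. Within 1 Mb of Cbl 5 of 33 were called (15.2%). Whether alleles linked to the targeted genes differ between the cultures was not tested.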

How the data were processed

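Polyadenylated RNA of 12 bone-marrow-derived macrophage cultures was sequenced from stranded TruSeq libraries, per the labels' protocols. The authors deposited 1 table of raw read counts per gene. The build was GRCm38.p5, per the submitters' processing notes, while no aligner, counter or use of strand is given in the sources used here; without strand, reads of antisense partners cannot be told apart. The table holds 15555 genes by Ensembl identifier, of which 15506 matched a symbol in GENCODE M21 (GRCm38), the source of positions. Each gene has at least 1 read in WT 1, and 0 rows name no gene.

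edgeR 4.0.16 in R 4.3.3 was used with its low-count filter (2884 genes removed), TMM scaling, 1 mean per genotype and robust quasi-likelihood F tests. In each of 6 contrasts p-values were adjusted by Benjamini-Hochberg across the 12671 genes tested, with a threshold of 0.05. All 12 libraries share 1 estimate of spread. CPM use TMM-scaled totals, and the mean log2 CPM of a gene uses a prior count of 0.5. Medians by library use the log2 of CPM with 0.5 added to each value, which shrinks differences of genes at low levels. The scripts were checked on simulated counts. Depth was 21048103 to 43946503 counts per library. Alternatives used limma 3.58.1 and DESeq2 1.42.0; running the list counts, list medians and classes under each of them was added after the data were seen.

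The members and the 34 gene lists were chosen with earlier results of these data known. Genes were named by rule: Cbl and Cblb, the 15 largest called departures in each direction among genes averaging at least 1 log2 CPM, up to 3 called members with the smallest adjusted p in each list (2 with the smallest p where none was called), and 4 per class of effects.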

Additional observations from a re-analysis of the deposited data

Results flagged for a closer look

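In 29 named genes the effect of losing 1 ligase was called in opposite directions with and without the other, and the departure is the test of that difference. The departures below are in log2 units. Below the sum were C5ar2 at -7.09, C5ar1 at -3.95, Pira2 at -3.24, Mcoln3 at -2.64 and Mrc1 at -2.59. So were Fam162a at -3.39, Apoe at -2.66, Ets1 at -2.37, Col4a2 at -2.32 and Mmp8 at -1.59, and Nqo1 at -0.84, Cxcl16 at -0.76 and Aurkb at -0.42. Each of these rose in Cbl-/- against WT and fell in DKO against Cbl-b-/-. Antigen presentation genes with opposite effects that lay above the sum were Cd74 at 1.38, H2-Eb1 at 1.89, H2-Aa at 1.54 and H2-T23 at 0.70. Also above were Ifi44l at 9.69, Hmga1b at 7.38, Ifi44 at 6.01, Plbd1 at 4.44, Akap2 at 3.63 and Bcl2a1d at 3.37, and Ighm at 1.41, Atf3 at 0.83, Hk3 at 0.70 and Insig1 at 0.34. Each of these genes above the sum fell in the first comparison and rose in the second. The other 2 had opposite effects only for the loss of Cbl-b. Neo1 at -2.56 rose with it when Cbl was present and fell when Cbl was absent, and Col1a1 at 3.55 did the reverse. Hmga1b had 217 to 274 CPM in WT, 1.40 to 3.45 for Cbl-/-, 186 to 220.5 for Cbl-b-/- and 234 to 349 for DKO, and it shares sequence with Hmga1.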

How the results depend on the processing

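Across 20 alternative settings 0 of the named genes that were called changed sign. Of the 1985 called genes, 1755 were tested and kept their direction under a filter of 5 CPM in 3 libraries. Without DKO 3 this number was 1982, and in every other setting all 1985. Whether the rest were untested or changed sign was not counted. Of 135 named and called genes 15 lost the call in at least 1 setting, and 120 in no setting that tested them; 111 of these were tested in all 20. The count of 1985 was 2307 with DESeq2's own test, 1988 with limma voom and 1894 with 1 variance factor per genotype. Scaling by total counts gave 1719 genes below the sum and 711 above. The 5 CPM filter, which tested 9827 genes, left 253 departures of at least 1 log2 unit in place of 466. Cbl-b loss with Cbl present gave 145 genes with DESeq2's test and 115 with 1 variance factor per genotype, which gave 2936 for Cbl loss with Cbl-b present; the cause was not tested. With 1 library left out, the ranges were 1448 to 2780 genes called, 789 to 1443 above, 659 to 1337 below, 375 to 507 of at least 1 log2 unit, 733 to 2206 for Cbl loss with Cbl-b present, 3493 to 4543 with it absent, 35 to 144 for Cbl-b loss with Cbl present and 2855 to 4332 with it absent. Depth limits low genes: Ifi44l had 2, 4 and 0 reads in Cbl-/-.

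Replicate numbers are shared by the groups, but same-numbered libraries did not deviate together, with correlations of -0.04 to 0.06, and 5 of 12 libraries correlated best with their own number outside their genotype. A fit with the replicate number as a block called 1815 genes, 980 above and 835 below.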
